A study of Panicum virgatum with 54 samples.

Results

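The 100 pairs of neighbouring genes described here are those whose transcript levels followed each other most closely in switchgrass leaves. Switchgrass (Panicum virgatum) is a perennial grass with the paired subgenomes K and N, and AP13 is a genotype of its lowland cultivar Alamo. Levels were put on the scale log2(CPM + 1), where CPM (counts per 1e6 counts) is a gene's count scaled to the library's total. A pair was formed by identifiers with the same chromosome code (such as 5K) whose numbers differed by exactly 100. Both genes needed a mean of at least 5 CPM and a standard deviation of at least 0.5 on the log2 scale over all 54 libraries. Of 32190 identifiers, 30734 carried a chromosome code and formed 12583 such pairs, and 1161 pairs of 2145 genes passed both thresholds. The 1161 pairs were ranked by Pearson's r of the log2 levels over the 54 libraries, and the first 100 were kept. They held 190 genes, of which 10 belonged to more than 1 pair. The pairs were thus chosen by this correlation, and it is given as a description, without a test.

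The labels describe the 54 libraries as leaves of AP13 ramets (rooted shoots of 1 genotype) grown in pots and sampled at developmental stage E3. Control plants were untreated, drought plants received drought, and combined plants received drought with heat added after 72 h. Each treatment was sampled at 0, 72, 96, 120, 144 and 168 h, with 3 libraries per group and 18 groups. The combined plants were kept in a growth chamber of their own, apart from the other 2 treatments, so heat and chamber cannot be told apart. Nothing in the labels says that replicate libraries are from different plants, and the p-values therefore measure only the spread between these libraries, which may be technical.

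Plant chromosomes are known to hold neighbouring genes with similar expression in several arrangements. Tandem duplicates descend from a copied gene and can keep its regulation, divergently transcribed neighbours can share a promoter region, and some biosynthetic pathways are encoded by clusters of unlike genes. Neighbours can also seem alike in sequencing data when reads of near-identical or overlapping genes are assigned to both. Consecutive identifier numbers usually follow the order of genes along the chromosome, but positions, orientation and the distance between the genes were not used here. The identifiers did not match the names in the reference table, so no gene name, function or sequence is given, leaf marker genes were not checked, and each gene is written without its common suffix .v4.1.

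Total counts per library ran from 19.2 to 61.6 M (M for 1e6). In 12 libraries the median level of a set of 405 genes was only 0.428% to 1.29% of its usual value, in 4 more it was intermediate, and no control was among these 16. They were 6 drought and 10 combined libraries, 5 of them among the 15 drought libraries of 72 to 168 h and 6 among the 12 combined libraries of 96 to 168 h. All 6 combined libraries numbered 2 were among the 12, and no library numbered 3 was among the 16. The set was picked as genes low at 0 h in 1 drought and 1 combined library, so its near absence in these is built in. Whether all 54 libraries are of the labelled genotype and treatment was not tested. Results are therefore also given for the other 38 libraries. A control library, 144 h replicate 2, lay near the stressed libraries for the genes below. It was the highest of 15 control libraries in 26 of the 34 genes of pairs that rose in drought, and the lowest in 19 of the 28 genes of pairs that fell. It was kept in all tests. Its part in the results was measured by leaving it out, as given beside the drought counts.

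Neighbours were more often alike than genes farther apart on the same chromosome. Among the 1161 pairs with a number difference of 100, the median r was 0.27, and 8.61% of pairs reached the r of the last pair kept. At a difference of 200 the median was 0.17 and the share 5.0% of 1080 pairs. At 500 they were 0.11 and 2.94% of 985 pairs, and at 1000 they were 0.07 and 2.07% of 920 pairs. Of the 1161 pairs, 33.4% had an r above 0.5 and 29.5% had one below 0. These pairs share libraries and many share genes, so the shares are descriptions.

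**Figure D1:**
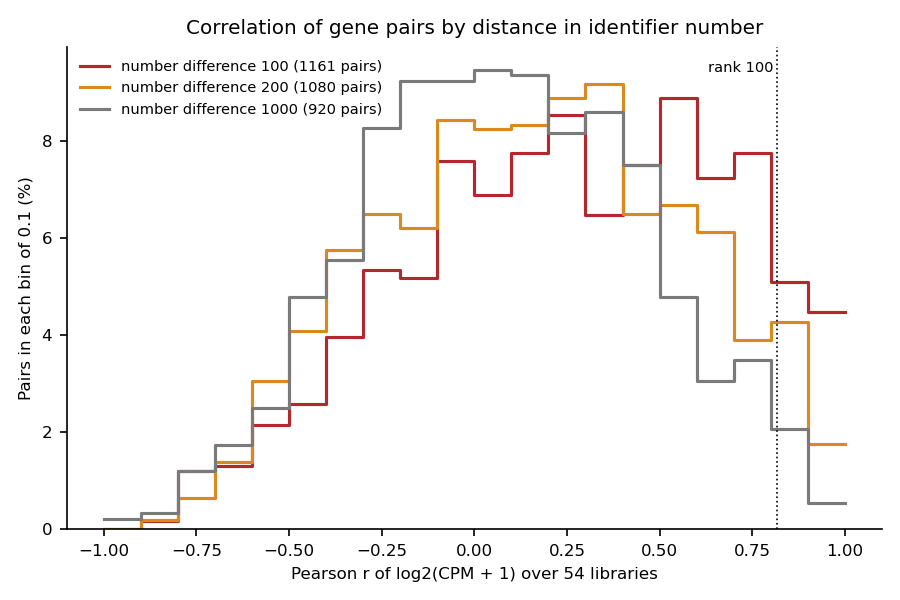
Distribution of Pearson's r of log2(CPM + 1) over 54 libraries for gene pairs on 1 chromosome whose identifier numbers differ by 100, 200 or 1000, as the percent of pairs in each bin of 0.1. The curve for a difference of 100 lies highest from 0.5 upwards, and the dotted line marks the lowest r among the 100 pairs kept.

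Within the 100 pairs r ran from 0.816 to 0.991, with a median of 0.901. The last pair inside the limit was Pavir.9KG059100 with Pavir.9KG059200 at 0.8163, and the first outside was Pavir.3KG436400 with Pavir.3KG436500 at 0.8153. The likeness was seen within groups as well as between them. After the group means were removed, the deviations of the single libraries correlated at a median of 0.892, with a lowest value of 0.588. The choice by r used these same libraries, including some that stand apart from others of their group. High values within groups are thus in part built in and are descriptions. The group means themselves correlated at a median of 0.925. Within control, drought and combined libraries the medians were 0.879, 0.892 and 0.911. Rank correlations were lower, from 0.523 to 0.988 with a median of 0.874.

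The pairs lay on both subgenomes, with 56 of 630 eligible pairs on K (8.89%) and 44 of 531 on N (8.29%). By share of eligible pairs 8N led with 6 of 28 (21.4%), 6K with 8 of 46 (17.4%) and 6N with 5 of 31 (16.1%), while 9K with 13 of 118 (11.0%) and 9N with 12 of 129 (9.30%) held the most pairs. Members of a pair were often of like level, though CPM values are not corrected for gene length. The higher mean was less than 2 times the lower in 55 pairs and more than 10 times in 7. Among the 1061 eligible pairs below rank 100 these counts were 455 and 129, so like levels were common there too. The most unequal of the 100 pairs was Pavir.6KG112800 with a mean of 12.3 CPM and Pavir.6KG112900 with 1772 CPM, which still correlated at 0.895.

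The pair of highest r, Pavir.7NG116800 and Pavir.7NG116900 (r 0.991), had no call in any stress comparison. In the 15 control libraries of 72 to 168 h Pavir.7NG116800 ran from 0.351 to 32.2 CPM with a median of 1.12, and Pavir.7NG116900 ran from 0.115 to 30.2 with a median of 1.57. In the 15 drought libraries of these times they ran from 0.268 to 13.5 (median 7.24) and from 0.491 to 18.1 (median 7.20). The ranges overlapped, with the higher maximum in control and the higher median in drought. Each gene varied widely between libraries of 1 treatment while its neighbour varied with it. The log2 difference of drought against control was 0.99 ± 0.52 (SE) and 0.89 ± 0.54, with edgeR adjusted p of 0.16 and 0.22.

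Pavir.9NG594500 and Pavir.9NG594600 (r 0.986) were called in all 3 comparisons, but only combined stress against control kept the call both in the 38 libraries and with an estimated correlation. Pavir.9NG594500 had a median of 8.64 CPM in the 12 control libraries of 96 to 168 h (2.18 to 28.6), 21.1 in the drought libraries (5.29 to 56.9) and 50.8 in the combined libraries (6.87 to 91.8). Its neighbour had medians of 10.9, 21.1 and 41.4 CPM. Libraries overlapped between all treatments. Combined stress against control gave 2.01 ± 0.35 and 1.45 ± 0.29 on the log2 scale, with edgeR adjusted p of 2.7e-05 and 1.6e-04. Combined stress against drought had adjusted p of 0.065 and 0.13 with an estimated correlation and of 0.33 and 0.42 in the 38 libraries, and drought had 0.24 for both with the correlation.

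Some of the 100 pairs owed their place to the libraries that stand apart. In the other 38 libraries 84 pairs stayed at or above the r of rank 100, and 16 fell below it. Both members belonged to the 405-gene set in 6 pairs and 1 member in 4. For Pavir.8NG281600 and Pavir.8NG281700, r went from 0.902 over 54 libraries to -0.430 over 38. For Pavir.2NG076000 and Pavir.2NG076100 it went from 0.975 to 0.718. Pavir.2NG299600 and Pavir.2NG299700 showed the reverse level pattern. Pavir.2NG299600 was at most 1.07 CPM in the 15 control libraries of 72 to 168 h, with a median of 0.13 and a highest value of 29.4 in drought and, at 96 to 168 h, a median of 1.20 and a highest value of 32.5 in combined libraries. Its r with its neighbour fell from 0.982 to 0.277 in the 38 libraries. The pair was called higher in drought and in combined stress, but drought and combined libraries were already above control at 0 h by 7.12 and 7.98 for Pavir.2NG299600, and in the 38 libraries its changes had the opposite sign, -0.62 and -1.05. Neither of these last genes belongs to the 405-gene set, which was built from genes low in 1 drought and 1 combined library at 0 h.

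**Figure D2:**
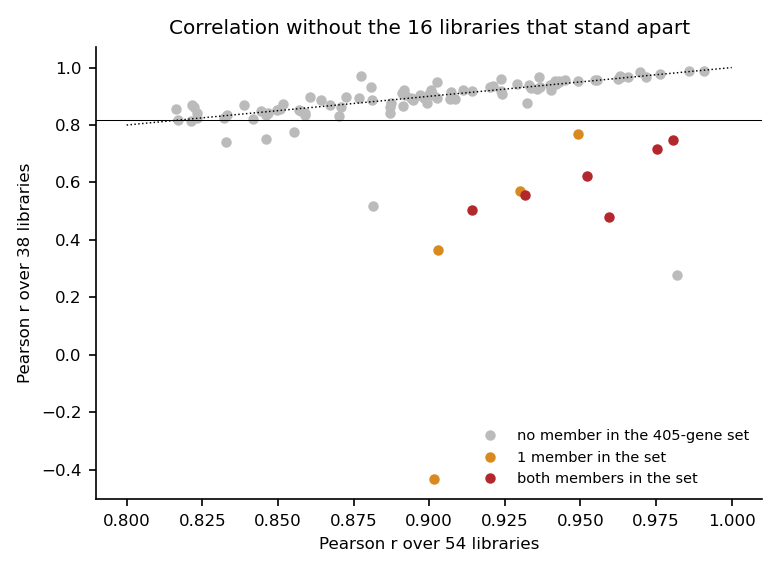
Pearson's r of each of the 100 pairs over 54 libraries (x axis) and over the 38 libraries left without the 16 that stand apart (y axis), coloured by how many members belong to the 405-gene set. The dotted line marks equal values and the solid line the r of rank 100, below which 16 pairs fall.

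Consecutive pairs joined into 7 runs of 3 or 4 genes, which held 17 of the 100 pairs and 24 genes. Runs were Pavir.2KG082400 to Pavir.2KG082600, Pavir.6KG112300 to Pavir.6KG112500, Pavir.6KG112600 to Pavir.6KG112900, Pavir.7KG405200 to Pavir.7KG405500, Pavir.7NG387600 to Pavir.7NG387900, Pavir.8NG281500 to Pavir.8NG281700 and Pavir.9KG381600 to Pavir.9KG381800. The other 83 pairs shared no gene with another of the 100. Further neighbours could still be alike but miss a threshold of level or spread. Pavir.9KG286200, for example, had an r of 0.959 with the identifier before it, which formed no eligible pair with it.

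The 2 runs on chromosome 6K lay inside a longer stretch, which was looked at after its values were seen. From Pavir.6KG112300 to Pavir.6KG115900 the table listed 29 identifiers, and 23 of the other 28 had an r of at least 0.7 with Pavir.6KG112900. The median over these others was 0.859. Of the 6 identifiers listed just before the stretch, none did, and their r ran from -0.27 to 0.18. After the stretch Pavir.6KG116000 still had an r of 0.736 and Pavir.6KG117500 had 0.018, so its end is no sharp limit of likeness. The stretch held 7 of the 100 pairs, and 11 members. Its strongest gene, Pavir.6KG112900, had group means between 921 CPM (control, 120 h) and 3633 CPM (control, 168 h).

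The 4-gene runs on 7K and 7N followed each other across subgenomes. The 16 correlations between a gene of Pavir.7KG405200 to Pavir.7KG405500 and one of Pavir.7NG387600 to Pavir.7NG387900 had a median of 0.952 over 54 libraries and of 0.954 over 38. Within control libraries alone their median was 0.938. If these genes were near-identical copies on K and N, reads could have been shared between them, and this was not tested.

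Stress responses of the pairs were read from edgeR's quasi-likelihood test, fitted to 32011 genes, and a Benjamini-Hochberg adjusted p below 0.05 counted as a call. A pair is said to rise or fall when both members were called in that direction. Since members were chosen to vary together, joint calls are in part built in, and the threshold on spread favours genes that respond, so the counts are set beside the same counts over all 1161 eligible pairs. In no comparison were the members of any of the 100 pairs called in opposite directions. Drought and combined stress were compared with control libraries that are shared at 96 to 168 h, so the 2 comparisons are not independent. In bulk leaf tissue, fewer cells of a type and less RNA per cell cannot be told apart.

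Over the means of 72 to 168 h, 17 pairs rose and 16 fell in drought, against 8.18% and 5.08% of all 1161 eligible pairs. When libraries of the same number and treatment were allowed to correlate in limma, 1 of the 17 and 1 of the 16 kept their call. By gene, 40 of 190 members were higher and 38 lower, against 21.9% and 14.8% of the 9507 genes past both thresholds and 14.0% and 11.2% of all genes. In combined stress against control at 96 to 168 h, 25 pairs rose and 28 fell, against 14.2% and 9.39% of eligible pairs. By gene, 55 members were higher and 61 lower, against 32.5% and 21.8% of genes past both thresholds and 24.4% and 20.1% of all genes. In combined stress against drought at the same times, 13 pairs were higher and 13 lower, against 5.51% and 5.08%, with 34 members higher and 33 lower, against 20.5% and 16.6% of genes past both thresholds and 15.8% and 14.1% of all genes. Opposite calls, absent from the 100 pairs, were found in 4.22%, 10.1% and 5.86% of all eligible pairs in these comparisons. In all, 69 pairs had a joint call in at least 1 of the 3 comparisons, against 34.5% of eligible pairs, and 20 pairs had no member called in any, against 10.9%. Of the 127 calls of named members in these comparisons, 20 had a difference of the same sign and at least 0.5 times as large at 0 h.

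The median size of the log2 change was 0.55 in members against 0.43 in the 9507 genes past both thresholds in drought, 0.98 against 0.66 in combined stress against control, and 0.62 against 0.48 in combined stress against drought. The choice by r favours genes of large spread and pairs of like change, so these values and the next are descriptions. In the 33 jointly called pairs of the drought comparison, the log2 changes of both members differed by a median of 0.23, and by more than 1 in 7 pairs, while the 121 jointly called pairs below rank 100 had a median of 0.33. In combined stress against control, the 53 jointly called pairs had a median difference of 0.35, and 9 differed by more than 1, while 221 such pairs below rank 100 had a median of 0.37.

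**Figure D3:**
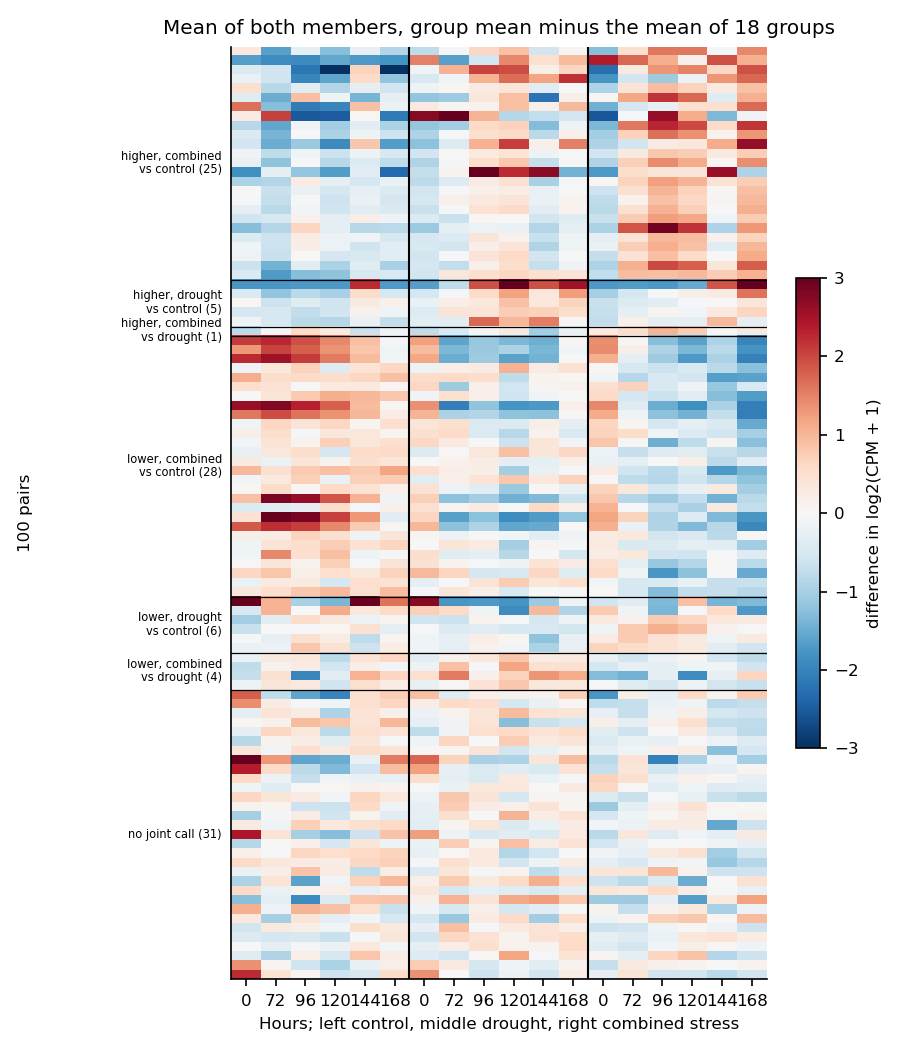
Level of the 100 pairs (rows) in the 18 groups (columns, hours under control, drought and combined stress), as the mean over both members of log2(group mean CPM + 1) minus the mean of 18 groups, with colours capped at 3. Rows are sorted by the first joint call in the order combined against control, drought against control and combined against drought, in bands of 25, 5, 1, 28, 6, 4 and 31 pairs, and within a band by rank of r.

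**Figure D4:**
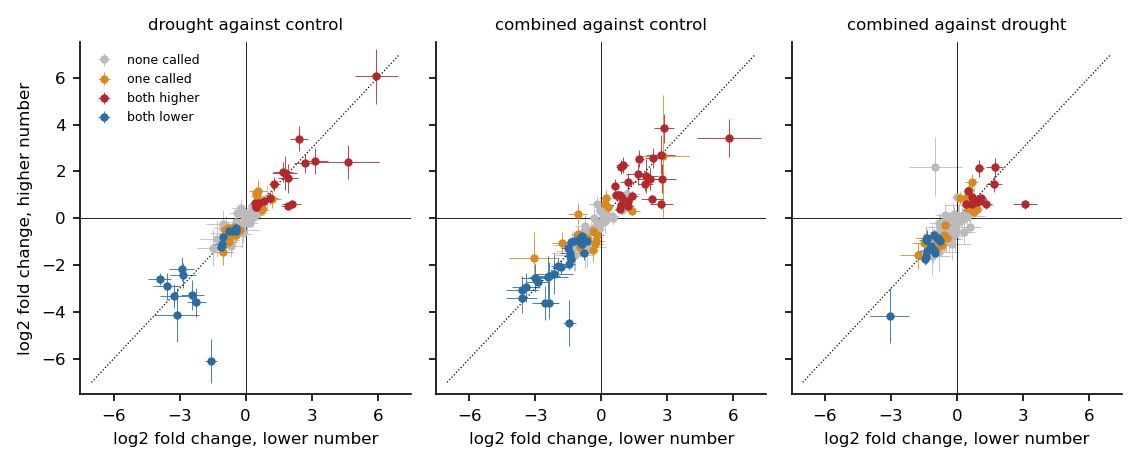
Log2 fold change of the gene with the higher number (y axis) against that of the gene with the lower number (x axis) for the 100 pairs in 3 comparisons, with bars for the standard error. No pair is called in opposite directions, and points far from the dotted line of equal change are pairs in which a member changed much more than its neighbour.

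The 17 pairs that rose in drought did so by a median log2 change of 1.70 over their 34 genes, from 0.42 to 6.05. None was in a run. Their median difference from control was -0.12 at 0 h and rose from 0.84 at 72 h to 2.21 and 2.45 at 96 and 120 h. At the last 2 times it was 0.12 and 1.01. The low value at 144 h coincides with the control library that lay near the stressed ones, and the cause was not tested. Without that library 19 pairs rose and 20 fell. Without the 16 libraries that stand apart, 14 of the 17 pairs that rose and 13 of the 16 that fell kept their call, against 1 of each with an estimated correlation.

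Pavir.3KG098000 and Pavir.3KG098100 (r 0.949) rose in drought and in combined stress. Pavir.3KG098000 had a median of 13.0 CPM in the 15 control libraries of 72 to 168 h (8.05 to 224.8) and of 113 CPM in the drought libraries (38.7 to 368). Pavir.3KG098100 had 6.95 CPM (1.02 to 269.6) and 82.2 CPM (17.7 to 524). The treatments overlapped only through a few control libraries, the highest being 144 h replicate 2 at 224.8 CPM for the first gene. The log2 change was 2.41 ± 0.41 (SE) and 3.40 ± 0.54, with edgeR adjusted p of 9.2e-05 and 4.8e-05. In combined stress it was 2.85 ± 0.46 and 3.85 ± 0.62. This was the only one of the 17 pairs that kept its joint call when libraries of the same number and treatment were allowed to correlate in limma, with adjusted p of 0.031 and 0.048 with an estimated correlation.

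Pavir.6NG236500 and Pavir.6NG236600 (r 0.966) were close to 0 in nearly all control libraries and present in drought. In control libraries of 72 to 168 h the medians were 0.04 and 0.02 CPM, and the highest values were 57.8 and 36.2, both in 144 h replicate 2. In drought the medians were 3.51 and 2.45 CPM, with highest values of 56.6 and 50.7. Group means of Pavir.6NG236500 in drought went from 2.003 CPM at 72 h to 16.7 at 96 h and 28.8 at 120 h. The fitted log2 change was 5.94 ± 0.96 and 6.05 ± 1.18, with edgeR adjusted p of 5.4e-05 and 4.9e-04, and its size depends on the few counts in the controls. Combined stress had a different course, with group means of Pavir.6NG236500 at 0.072 CPM at 96 h and 0.368 at 120 h, then 21.1 at 144 h and 71.6 at 168 h. Combined stress against drought gave -3.05 ± 0.89 and -4.16 ± 1.17, with edgeR adjusted p of 0.0085 and 0.0071. This is a mean over 96 to 168 h, and at 168 h the combined mean of Pavir.6NG236500 exceeded its highest drought value, 56.6 CPM.

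Pavir.6NG195400 and Pavir.6NG195500 (r 0.943) showed the same order of levels. In control libraries of 72 to 168 h their medians were 0.714 CPM (0.143 to 13.5) and 3.60 CPM (1.28 to 38.9). In drought the medians were 6.68 CPM (0.641 to 56.2) and 14.2 CPM (4.49 to 89.7). Drought gave 2.71 ± 0.50 and 2.34 ± 0.40 on the log2 scale, with edgeR adjusted p of 2.3e-04 and 1.2e-04. Combined stress against drought gave -1.50 ± 0.53 and -1.04 ± 0.43, and only the first passed, with edgeR adjusted p of 0.029 and 0.065. At 0 h the first already differed by -1.79. For the second, combined libraries differed from control by -1.93 at 0 h and drought libraries by -0.31. Both genes thus started lower in combined than in drought libraries.

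Pavir.1KG417900 and Pavir.1KG418000 (r 0.832) rose by smaller amounts. Their control medians were 18.9 CPM (14.6 to 59.7) and 15.4 CPM (9.46 to 36.2), and their drought medians 47.2 CPM (19.8 to 64.4) and 31.1 CPM (14.0 to 42.3). The log2 change was 0.85 ± 0.18 and 0.74 ± 0.13, with edgeR adjusted p of 7.3e-04 and 9.5e-05. At 0 h drought libraries already differed from control by 0.48 for Pavir.1KG417900, but by -0.007 for Pavir.1KG418000.

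The 16 pairs that fell in drought held 28 genes, with a median log2 change of -1.40 and a range from -6.07 to -0.40. Of these pairs, 6 belonged to the runs on 7K and 7N. Their median difference from control was -0.02 at the start and -2.12, -1.59 and -2.40 at 72, 96 and 120 h. It then shrank to -1.43 and -0.51 at 144 and 168 h.

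The run Pavir.7NG387600 to Pavir.7NG387900 fell as a block. Pavir.7NG387800 had a median of 51.3 CPM in the 15 control libraries of 72 to 168 h (1.26 to 131.8) and of 3.69 CPM in drought (0.491 to 44.6). Pavir.7NG387700 had 14.0 CPM (1.16 to 28.2) and 1.91 CPM (0.408 to 11.8). The lowest control value of Pavir.7NG387800, 1.26 CPM, was again 144 h replicate 2, and its highest drought value, 44.6 CPM, was 168 h replicate 2. The control level itself went down with time, from a group mean of 95.9 CPM at 72 h to 17.0 at 168 h. Drought groups had means between 3.24 and 16.6 CPM at these times. The log2 changes of the 4 genes were -2.84 ± 0.58, -2.43 ± 0.53, -3.26 ± 0.64 and -3.31 ± 0.50, with edgeR adjusted p from 3.1e-05 to 0.0013.

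The run Pavir.7KG405200 to Pavir.7KG405500 changed by similar amounts. Pavir.7KG405300 had a control median of 17.5 CPM (0.643 to 46.2) and a drought median of 0.786 CPM (0.182 to 12.3). The log2 changes of the 4 genes were -2.25 ± 0.43, -3.58 ± 0.62, -2.91 ± 0.56 and -2.16 ± 0.52. In combined stress against control both runs fell too, Pavir.7KG405300 by 3.62 and Pavir.7NG387800 by 3.61 on the log2 scale. With an estimated correlation every pair of the 7N run kept this call. On 7K only Pavir.7KG405400 with Pavir.7KG405500 did, and Pavir.7KG405300 lost its call. In combined stress against drought none of the 8 genes was called, and Pavir.7NG387800 stood at -0.77 ± 0.67. With an estimated correlation the drought calls of these 8 genes were lost, for Pavir.7NG387800 with an adjusted p of 0.085 and for Pavir.7KG405300 with one of 0.13.

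Pavir.3KG282700 and Pavir.3KG282800 (r 0.900) had the smallest p of the pairs that fell in drought. Pavir.3KG282700 had a control median of 25.3 CPM (3.24 to 96.7) and a drought median of 2.27 CPM (0.134 to 9.57). Pavir.3KG282800 had 85.4 CPM (22.7 to 276.5) and 16.5 CPM (10.4 to 23.0), so that its groups hardly overlapped. The log2 change was -3.91 ± 0.50 and -2.60 ± 0.26, with edgeR adjusted p of 4.8e-06 and 1.4e-07. It was the only one of the 16 pairs to keep its call with an estimated correlation, with adjusted p of 0.032 and 0.0027. Combined stress against control gave -2.89 ± 0.54 and -2.70 ± 0.30.

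Pavir.5KG662600 and Pavir.5KG662700 (r 0.898) both fell, but by unlike amounts. Pavir.5KG662600 had a control median of 77.9 CPM (15.5 to 187.1) and a drought median of 30.5 CPM (20.6 to 42.3). Pavir.5KG662700 had 118 CPM (0.865 to 1157) and 1.96 CPM (0.0894 to 9.43). Its control group means ran from 497 CPM at 72 h to 9.44 at 168 h. The log2 change was -1.57 ± 0.25 and -6.07 ± 0.94, with edgeR adjusted p of 5.4e-05 and 3.8e-05.

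In combined stress against control the 25 pairs that rose had a median log2 change of 1.44 over 50 genes, and the 28 that fell had -1.48 over 51 genes. Runs gave 9 of the 28. These libraries include 6 of the 16 that stand apart, and without those 16, 15 of the 25 and 23 of the 28 pairs kept their call. With an estimated correlation 17 and 22 kept it.

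Pavir.9KG212400 and Pavir.9KG212500 (r 0.822) had the smallest p of the pairs that rose. Pavir.9KG212400 had a median of 6.82 CPM in the 12 control libraries of 96 to 168 h (3.57 to 12.1), 11.96 in drought (6.16 to 19.7) and 24.4 in combined stress (10.9 to 47.2). Pavir.9KG212500 had 4.17 CPM (1.53 to 15.4), 9.51 (1.94 to 18.8) and 44.9 (4.08 to 69.5). For the first gene only the lowest combined libraries overlapped the highest control library. The log2 change against control was 1.73 ± 0.21 and 2.54 ± 0.36, with edgeR adjusted p of 1.8e-07 and 1.7e-06. Against drought it was 1.03 ± 0.20 and 2.13 ± 0.36, with edgeR adjusted p of 2.3e-04 and 2.7e-05.

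Pavir.9NG267100 and Pavir.9NG267200 (r 0.911) were also highest in combined stress, and neither was called in drought. Their control medians were 4.14 CPM (0.785 to 19.2) and 3.51 CPM (0.716 to 8.11). In combined stress they were 37.7 CPM (5.41 to 59.5) and 27.6 CPM (3.997 to 37.6), while drought had 10.3 and 3.39 CPM. The log2 change against control was 2.35 ± 0.39 and 2.58 ± 0.42, and against drought 1.71 ± 0.38 and 2.17 ± 0.41.

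Pavir.1NG401000 and Pavir.1NG401100 (r 0.901) rose by smaller amounts against control. Pavir.1NG401000 had medians of 9.46 CPM (5.78 to 19.5) in control, 17.0 (8.94 to 24.5) in drought and 22.1 (14.0 to 31.6) in combined libraries. The log2 change of the pair was 0.47 ± 0.14 and 0.47 ± 0.13 in drought and 0.85 ± 0.16 and 0.99 ± 0.14 in combined stress against control, with edgeR adjusted p of 5.8e-05 and 2.1e-06 for the latter. Against drought the pair was higher in combined stress by 0.43 and 0.59. That joint call was kept neither in the 38 libraries nor with an estimated correlation. At 0 h combined libraries already differed from drought libraries by 0.51 for Pavir.1NG401000, but by -0.04 for Pavir.1NG401100.

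Among pairs that fell in combined stress, Pavir.7KG339600 and Pavir.7KG339700 (r 0.844) differed 76.8-fold in mean level. Pavir.7KG339600 had a median of 501 CPM (183.9 to 821) in control and 103 CPM (47.7 to 399.7) in combined libraries. Pavir.7KG339700 had 6.10 CPM (1.21 to 10.8) and 1.43 CPM (0.819 to 7.68). They nevertheless fell by the same amount, -1.95 ± 0.32 and -2.02 ± 0.32 on the log2 scale, with edgeR adjusted p of 1.2e-05 and 6.5e-06. Their test of the difference from drought gave -1.18 ± 0.32 and -1.19 ± 0.31.

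Pavir.9KG481700 and Pavir.9KG481800 (r 0.937) had control medians of 121 CPM (79.1 to 163.0) and 16.6 CPM (7.49 to 29.9). In combined libraries the medians were 45.3 CPM (28.2 to 106.2) and 3.75 CPM (3.24 to 17.5). The log2 change was -1.37 ± 0.22 and -1.73 ± 0.31, with edgeR adjusted p of 7.4e-06 and 3.5e-05. Pavir.4NG111300 and Pavir.4NG111400 (r 0.872) fell from 46.6 CPM (32.4 to 66.7) and 36.7 CPM (26.3 to 55.0) to 19.7 CPM (7.38 to 41.4) and 19.4 CPM (13.2 to 41.8). Drought libraries had medians of 39.0 and 32.7 CPM. Against control the pair gave -1.39 ± 0.24 and -1.02 ± 0.17, and against drought -1.04 ± 0.24 and -0.73 ± 0.17, with edgeR adjusted p of 0.0011 and 0.0012 for the latter.

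**Figure D5:**
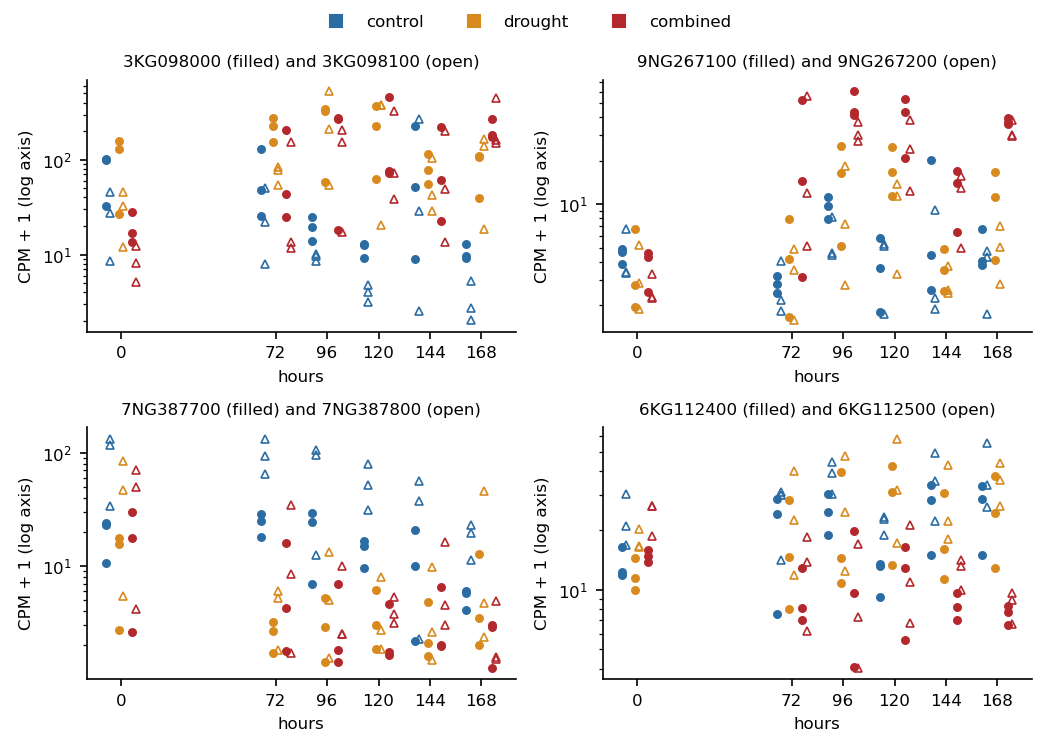
Level of 4 pairs in each of the 54 libraries, as CPM + 1 on a log axis against hours, with the gene of lower number filled and its neighbour open, and points of control, drought and combined libraries set side by side. Pavir.3KG098000 and Pavir.3KG098100 are high in both stresses, Pavir.9NG267100 and Pavir.9NG267200 mostly in combined stress, Pavir.7NG387700 and Pavir.7NG387800 are low in both stresses, and Pavir.6KG112400 and Pavir.6KG112500 are low in combined stress.

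Combined stress against drought at 96 to 168 h compares the 2 stressed treatments with each other, which differ in heat and chamber together. The 13 pairs that were higher had a median log2 change of 0.90 over 26 genes, and the 13 that were lower had -1.18 over 23 genes, with 6 of these in runs. With an estimated correlation 6 of the higher and 3 of the lower pairs kept their call. These differences were not confined to heated times. For the higher pairs the median difference of combined from drought libraries was 0.28 at 0 h and 1.01 at 72 h, when the titles give combined plants no heat, and between 0.71 and 1.14 from 96 to 168 h. For the lower pairs it was 0.27 at 0 h and -0.80 at 72 h, and between -1.38 and -0.84 afterwards.

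At 72 h alone only 1 pair was called, against 0.603% of eligible pairs. Pavir.1KG220400 and Pavir.1KG220500 were higher in combined libraries by 1.24 ± 0.29 and 1.60 ± 0.40, with edgeR adjusted p of 0.019 and 0.027. This count moved from 0 without combined 72 h replicate 3 or drought 72 h replicate 2 to 6 without combined 72 h replicate 1. When the 72 h difference was subtracted from the later one, edgeR called 0 pairs and 0 members, with 15 of 190 members at an unadjusted p under 0.05. DESeq2 called 1 pair lower in that comparison, and of all genes edgeR called 0.0406%. Heat, chamber and whatever already differed at 72 h can therefore not be told apart in these pairs.

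Without the 16 libraries that stand apart, 3 of the 13 higher and 5 of the 13 lower pairs kept their call, from a fit with 6 combined libraries. The 3 higher pairs that remained were Pavir.9KG212400 with Pavir.9KG212500, Pavir.9KG078800 with Pavir.9KG078900 and Pavir.3NG018300 with Pavir.3NG018400. Pavir.9KG078800 and Pavir.9KG078900 (r 0.877) had drought medians of 71.3 CPM (21.7 to 114.1) and 52.9 CPM (26.0 to 87.4). Their combined medians were 108 CPM (69.1 to 187.5) and 96.9 CPM (62.7 to 129.2), and their control medians 68.4 and 47.1 CPM. The log2 change against drought was 0.98 ± 0.15 and 0.82 ± 0.14, with edgeR adjusted p of 1.0e-05 and 3.7e-05. At 0 h, before any stress, combined libraries of Pavir.9KG078800 and Pavir.9KG078900 were already above drought libraries by 1.28 and 0.88 on the log2 scale. Drought against control gave -0.12 ± 0.14 and 0.23 ± 0.12, neither of them called.

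Pavir.3NG018300 and Pavir.3NG018400 (r 0.858) had medians of 11.9 CPM (9.25 to 23.8) and 20.3 CPM (15.1 to 31.1) in drought and of 34.4 CPM (12.1 to 56.5) and 38.9 CPM (21.7 to 64.6) in combined libraries. The change was 1.10 ± 0.21 and 0.86 ± 0.14, with edgeR adjusted p of 1.3e-04 and 1.2e-05.

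The lower pairs included the block on 6K. Pavir.6KG112500 had a median of 31.3 CPM (17.8 to 54.2) in control, 28.3 (11.5 to 57.1) in drought and 8.81 (3.04 to 20.2) in combined libraries. Pavir.6KG112400 had 20.8, 19.3 and 7.26 CPM. Control and drought libraries spanned the same range, and most combined libraries lay below it. Against drought the change was -1.46 ± 0.28 for Pavir.6KG112400 and -1.74 ± 0.27 for Pavir.6KG112500, with edgeR adjusted p of 1.7e-04 and 1.1e-05. From Pavir.6KG112300 to Pavir.6KG112900 all 7 genes were lower than in drought, by 0.84 to 1.74 on the log2 scale. The most abundant, Pavir.6KG112900, had medians of 2047 CPM (901 to 4503) in drought and 1117 CPM (448.9 to 2554) in combined libraries, and a change of -0.85 ± 0.29 (edgeR adjusted p = 0.026). In the 38 libraries Pavir.6KG112500 and Pavir.6KG112400 kept their call, with adjusted p of 0.008 and 0.024, while Pavir.6KG112900 had 0.18.

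Pavir.2KG562600 and Pavir.2KG562700 (r 0.962) behaved like the block on 6K. In drought their medians were 7.09 CPM (3.51 to 23.8) and 21.7 CPM (9.19 to 50.4), and in combined libraries 3.27 CPM (1.28 to 6.49) and 7.27 CPM (2.99 to 16.7). The change was -1.42 ± 0.29 and -1.64 ± 0.30 against drought, with edgeR adjusted p of 2.6e-04 and 8.7e-05. Drought against control gave -0.05 ± 0.25 and -0.05 ± 0.26. The run on 2K was higher in drought only in its middle gene, Pavir.2KG082500, by 1.18 ± 0.44 (edgeR adjusted p = 0.047). Against drought, Pavir.2KG082400 and Pavir.2KG082500 stood lower in combined stress, at -1.36 ± 0.46 and -1.42 ± 0.50. At 0 h these differences were already -1.73 and -1.47, and Pavir.2KG082500 was 1.42 above control in drought libraries at 0 h. The third gene, Pavir.2KG082600, stood at -0.84 ± 0.44 and did not pass.

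The runs on 8N and 9K had no joint call. Pavir.9KG381800, with a control median of 972 CPM and a combined median of 814 CPM at 96 to 168 h, was the only gene called there, at -0.72 ± 0.24 against drought (edgeR adjusted p = 0.019). Its neighbours Pavir.9KG381600 and Pavir.9KG381700 stood at -0.59 ± 0.26 and -0.58 ± 0.25.

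A pair can change together and still shift its balance. The log2 ratio of both members was tested with limma over all 1161 eligible pairs. It changed in 20 of the 100 pairs in drought, 40 in combined stress against control and 21 in combined stress against drought, against 30.6%, 46.0% and 32.0% of all eligible pairs. Pairs of high r were in effect chosen for a steady ratio, so nothing is read from the lower shares. In drought the largest shift relative to its error was in Pavir.5KG662600 over Pavir.5KG662700, whose log2 ratio rose by 3.45 ± 0.55 (limma adjusted p = 2.2e-05).

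Pavir.5KG658900 and Pavir.5KG659000 (r 0.894) rose in drought by 1.92 ± 0.33 and 0.52 ± 0.14. The first went from a median of 4.20 CPM (2.0 to 61.4) to 20.3 (5.66 to 76.4), the second from 11.2 (7.41 to 31.2) to 17.3 (8.09 to 41.4). Their log2 ratio rose by 1.18 ± 0.20 (limma adjusted p = 4.6e-05). In the 7N run the ratio of Pavir.7NG387700 to Pavir.7NG387800 rose by 1.12 ± 0.22 (limma adjusted p = 2.8e-04).

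In combined stress the ratio of Pavir.5KG093600 to Pavir.5KG093700 fell by 1.02 against control, with an SE of 0.15 (limma adjusted p = 1.3e-06), and by 0.67 against drought, with an SE of 0.15. Pavir.5KG093700 rose from a median of 2.46 CPM (0.554 to 8.78) in control to 17.7 (3.11 to 29.3) in combined libraries, and Pavir.5KG093600 from 5.90 (1.90 to 18.5) to 15.2 (3.68 to 22.0). Pavir.9NG722400 fell by 1.06 ± 0.43 on the log2 scale while Pavir.9NG722500 stood at 0.20 ± 0.44, and their ratio fell by 1.18 with an SE of 0.18. For Pavir.6KG221100 and Pavir.6KG221200 only the second was called against control, at -1.12 ± 0.34, and the ratio rose by 0.86 ± 0.15. Pavir.3KG306900 rose against drought from a median of 2.74 CPM (0.749 to 6.47) to 30.1 (0.431 to 192.3), and its neighbour Pavir.3KG307000 from 4.43 (1.61 to 7.82) to 8.20 (3.31 to 15.4). Their changes were 3.09 ± 0.53 and 0.59 ± 0.20, and the ratio rose by 2.13 ± 0.38 (limma adjusted p = 3.8e-05). Without the 16 libraries that stand apart, 23 ratios changed in combined stress against control and 4 in combined stress against drought.

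The 31 pairs without a joint call included 4 of the 6 pairs of highest r. Pavir.8NG281500 and Pavir.8NG281600 (r 0.981) and Pavir.2NG076000 and Pavir.2NG076100 (r 0.975) belong to the 405-gene set. Pavir.8NG281500 was at 12.3 to 59.3 CPM in the 15 control libraries of 72 to 168 h, at 0.0447 to 58.9 in drought and, from 96 to 168 h, at 0.0288 to 51.1 in combined libraries. Each stress thus held libraries with almost no transcript beside libraries within the control range, and the log2 change in drought was -0.16 ± 0.80. Pavir.6KG114400 and Pavir.6KG114500 (r 0.976), in the stretch on 6K, stood at -0.82 ± 0.40 and -0.97 ± 0.36 against drought, and only the second passed, with edgeR adjusted p of 0.12 and 0.037.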

How the data were processed

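Leaf RNA of 54 libraries (18 groups of 3) was measured by RNA sequencing with a stranded mRNA kit, per the labels. The authors deposited 1 table of raw counts (whole numbers, 1 row per gene), made with TopHat, Cufflinks and HTSeq, per the submitters' processing notes. For versions, genome build, annotation and strand setting the entry is "not given in the sources used here", so counts of near-identical copies and of overlapping genes are uncertain. Groups and times follow the titles, except that combined libraries titled 94 h were taken as 96 h, as in the series design and the column names, and 1 week as 168 h. Of 32190 identifiers, 0 matched the 74976 genes of the RefSeq P.virgatum_v5 table.

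The main test used edgeR 4.0.16 (R 4.3.3) (quasi-likelihood, a mean for each of 18 groups, trimmed mean of M values, default expression filter), which tested 32011 genes and removed 179, with Benjamini-Hochberg adjustment at 0.05. Comparisons averaged times with equal weight. Libraries held 19.2 to 61.6 M counts, and the common biological coefficient of variation was 0.433. Spread between libraries thus exceeds counting error at 5 CPM, which is 95.8 counts in the shallowest library. This does not hold for the values near 0 CPM described for some genes. Ratios of pair members, log2(CPM + 1) of the lower number minus that of the higher, were tested with limma 3.58.1 over 1161 pairs. The tests were tried on simulated data. The 405-gene set came from a search for genes at least 2 log2 units apart between the untreated 0 h libraries, without labels.

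The pairs named are the 10 of highest r, in each of the 3 comparisons the 4 rising and 4 falling pairs with the smallest larger p, the pairs at ranks 100 and 101, all runs, and the 3 ratio changes of smallest p per comparison. Pavir.1KG220400 with Pavir.1KG220500 was named as the single call at 72 h. The stretch on 6K and the comparison of the 7K and 7N runs were added after their values were seen. The pairs, comparisons and lists were chosen with earlier results of these data known. Alternatives were DESeq2 1.42.0, limma-voom with and without an estimated correlation within sets of equal replicate number and treatment (estimated at 0.204 over 9 sets), the replicate block, other filters and scalings, only the groups compared, the 38 libraries and leaving out each library.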

Additional observations from a re-analysis of the deposited data

How the results depend on the processing

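The 65 genes named by rule had 131 calls in the 3 comparisons, and of 4539 repeats of these, 4186 kept the call, 351 lost it and 2 changed sign. The losses included 65 with a correlation within numbers, 36 without the 16 libraries and 221 on leaving out 1 library, the latter in 26 of the 131. Both changes of sign were of Pavir.2NG299600 without the 16 libraries, at -0.622 in drought and -1.048 in combined stress against control. Counts are given as higher and lower pairs, from 17 and 16 in drought, 25 and 28 in combined stress against control, and 13 and 13 in combined stress against drought. Limma-voom gave 11 higher pairs in drought. With a correlation within numbers it gave 1 and 1 in drought and 6 and 3 against drought, and it left 4, 21 and 7 changed ratios of the 20, 40 and 21 in these comparisons. Without the 16 libraries that stand apart, 15 pairs were higher in combined stress against control and 3 against drought, and 23 and 4 ratios changed. In a fit of only the groups compared 13 ratios changed against drought. Why these counts moved was not tested, except that fewer libraries enter such fits. Same-numbered libraries of different groups deviated together with correlations from -0.51 to 0.53 (median 0.02). Of drought and combined libraries at 72 to 168 h, 11 of 15 were above 0.1, at 96 h all 3, against 5 and 4 of 15 with control. The median for drought with combined libraries at these times was 0.33, against -0.02 for drought and -0.22 for combined libraries with control. The labels state no pairing, so the numbers were not taken to pair the samples in the main fit. Whether drought and combined libraries of the same number belong together was not settled by these values. With the replicate block the counts of these 3 comparisons stayed within 1.5 times, and 14 of 17 and 16 of 16 drought pairs kept their call. At 72 h the count of 1 higher pair became 2 with a mean of at least 5 CPM, 2 with the replicate block, 5 without the 16 libraries, 0 in the groups compared alone, 0 by limma-voom with or without the correlation and 7 by DESeq2, which also gave 1 lower pair there and 1 lower pair after subtraction of 72 h.

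Leaving out each library in turn gave 13 to 19 higher and 12 to 20 lower pairs in drought, 23 to 28 and 26 to 36 in combined stress against control, 9 to 16 and 9 to 19 against drought, and 0 to 6 higher and 0 lower pairs at 72 h. After subtraction of 72 h, 0 pairs were higher and 0 to 1 lower, the 1 without combined 72 h replicate 3. Changed ratios ran from 15 to 23, 32 to 45 and 16 to 24. Membership of the 100 pairs was 77 to 89 without all libraries of 1 replicate number. It was 53 with a mean of at least 1 CPM, 51 with at least 10 CPM, 34 with a standard deviation of at least 1, and 53, 59 and 54 in control, drought or combined libraries alone. With at least 10 CPM and with the higher standard deviation, the r of the last pair kept fell from 0.816 to 0.679 and -0.878. The 51 and 34 therefore only count the original pairs that pass these thresholds and do not measure how steady the ranking is. Depth matters mainly for genes near 0 in a group, since 5 CPM corresponds to 95.8 counts in the shallowest library.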

Other observations

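In 3 pairs both genes were called in drought against control and, with the opposite sign, in combined stress against drought. These 2 comparisons share the drought libraries, and the pairs were picked out after their values were seen. Pavir.9KG563800 and Pavir.9KG563900 fell in drought by 0.75 and 0.56 on the log2 scale (edgeR adjusted p = 0.023 and 0.048) and were higher in combined stress than in drought by 1.30 ± 0.28 (SE) and 0.62 ± 0.24 (edgeR adjusted p = 4.9e-04 and 0.044). Pavir.9KG563800 had medians of 33.8 CPM (19.8 to 118.6) in the 12 control libraries of 96 to 168 h, 22.6 (11.5 to 41.6) in drought and 52.1 (28.1 to 145.9) in combined libraries, and the 3 ranges overlapped. Neither gene was called in combined stress against control. In the 38 libraries this pair kept its joint call in drought but lost the one in combined stress against drought. With an estimated correlation none of the 3 pairs kept either joint call. Pavir.4KG183100 with Pavir.4KG183200, like Pavir.6NG236500 with its neighbour, had the opposite order when averaged over times. They were higher in drought than in control and lower in combined stress than in drought. At 168 h, however, the combined group mean of Pavir.6NG236500 was above its highest drought library.

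Pavir.8NG138400 and Pavir.8NG138500 (r 0.833) were both lower than control in drought and in combined stress. Pavir.8NG138500 had medians of 95.8 CPM (34.2 to 146.0) in control, 53.3 (21.6 to 83.7) in drought and 21.8 (8.75 to 55.2) in combined libraries, and its neighbour had 31.3, 14.2 and 9.08 CPM. The ranges of all 3 arms overlapped. Pavir.8NG138500 was lower than control by 0.81 in drought and by 2.07 in combined stress on the log2 scale (edgeR adjusted p = 0.027 and 4.0e-06), and it was lower in combined stress than in drought by 1.12 (edgeR adjusted p = 0.0052), where Pavir.8NG138400 was not called (difference -0.69 ± 0.35, edgeR adjusted p = 0.13). In the 38 libraries the drought call of Pavir.8NG138500 was lost, with an adjusted p of 0.14.

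Single libraries also stood out in stressed plants. Combined 144 h replicate 2 was the lowest of 12 combined libraries in 33 of the 50 genes of pairs that rose in combined stress against control. Drought 168 h replicate 2 was the highest of 15 drought libraries in 11 of the 28 genes of pairs that fell in drought, and the lowest in 10 of the 34 genes of pairs that rose. Drought 72 h replicate 2 was the lowest in 12 of those 34 genes.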
